A study of Mus musculus with 54 samples.

Results

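Untransfected M1-like macrophages were compared with untransfected M0 macrophages in the paired-end RNA-seq experiment of this series. The comparison rests on 6 libraries, 3 of M0 and 3 of M1-like macrophages, out of 36 in that experiment and 54 in the series, and their titles alone, which name the state, the replicate and no transfection, put them in their groups. All 6 came from thioglycolate-elicited peritoneal cells of C57BL/6 mice (H2b haplotype, 8 to 20 weeks old), collected by lavage 4 days after the injection, enriched by adherence only and cultured in DMEM with 10% fetal calf serum. M0 cells had no stimulus, whereas M1-like cells in this study had LPS at 100 ng/ml combined with IFNγ at 50 ng/ml, over 24 h. The study's methods put the sequencing of M0 and M1-like cells that were not transfected at 24 h after polarization and that of transfected cells at 48 h after transfection, without saying separately which time holds for the untransfected libraries of this experiment. For comparison there were 2 further pairs of conditions. M0 and M1-like cells that went through a mock transfection in the same experiment gave 3 libraries each. M0 and M1-like cells of the 24 h polarization experiment were sequenced as single 50 nt reads. Their titles carry the same 3 mouse numbers in both states. The labels do not say whether the 3 libraries of a paired-end condition came from separate mice or cultures. The methods name 3 biological replicates of M0 and M1-like cells in the account of RNA for PCR, without tying them to these libraries. The p-values of this pair rest on the spread within conditions over all 36 libraries of that experiment, not on the 6 libraries alone. This spread may be partly technical.

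LPS, a component of the wall of Gram-negative bacteria, is bound by TLR4 with its co-receptors and acts through NF-κB and, by way of induced interferon β, through the type I interferon receptor. IFNγ acts through its own receptor and the kinases JAK1 and JAK2, with GAS elements in the promoters of its targets, and through IRF1, a factor that binds ISRE elements. Together they are known to make macrophages produce nitric oxide, cell-autonomous defence GTPases, antigen presentation molecules and inflammatory cytokines, and to move them toward glycolysis and away from sterol synthesis.

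The 6 libraries held 13421854 to 15851418 counted reads each, with 1.25 to 1.61% on mitochondrial genes. The macrophage label was checked on 6 markers, whose summed level was 16380 to 16720 CPM (reads of a gene scaled to a common library size, with TMM factors) in M0 and 6516 to 7664 CPM in M1-like libraries. Markers of other cells of a peritoneal lavage were low in all 6 libraries. T cell markers summed to at most 4.16 CPM with Cd3e at 0, NK cell markers to at most 0.558 CPM, and neutrophil markers to at most 13.5 CPM with Ly6g, S100a9 and Camp at 0. Mast cell markers stayed at or under 4.34 CPM and dendritic cell markers at or under 6.35 CPM. B cell markers reached 7.71 to 27.6 CPM in M0 and 0.733 to 1.14 CPM in M1-like libraries. Mesothelial and fibroblast markers stood at 72.0 to 149 CPM in M0 and 20.2 to 63.4 CPM in M1-like libraries, and the part of such cells in any result was not tested. In bulk RNA, fewer cells of a type and less RNA per cell cannot be told apart.

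The M1-like cells differed from M0 in most of the genes that could be tested. Of 14172 genes, 8179 passed an adjusted p of 0.05 (edgeR's quasi-likelihood test), which is 57.7%. The calls split evenly, with 4105 genes higher (29.0%) and 4074 lower (28.7%) in M1-like cells, and the median log2 fold change over all genes was 0.00996. A change of at least 1 on the log2 scale besides the test was reached by 1149 genes upward (8.11%) and 1574 downward (11.1%). The 3 M1-like libraries lay above the 3 M0 libraries without overlap for 4295 genes (30.3%) and below them for 4276 genes (30.2%). Because so many genes moved, each gene group is read against these shares. Below, "rose" and "fell" are used only of genes past the test, and a log2 fold change is given with its SE as M1-like minus M0.

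**Figure D1:**
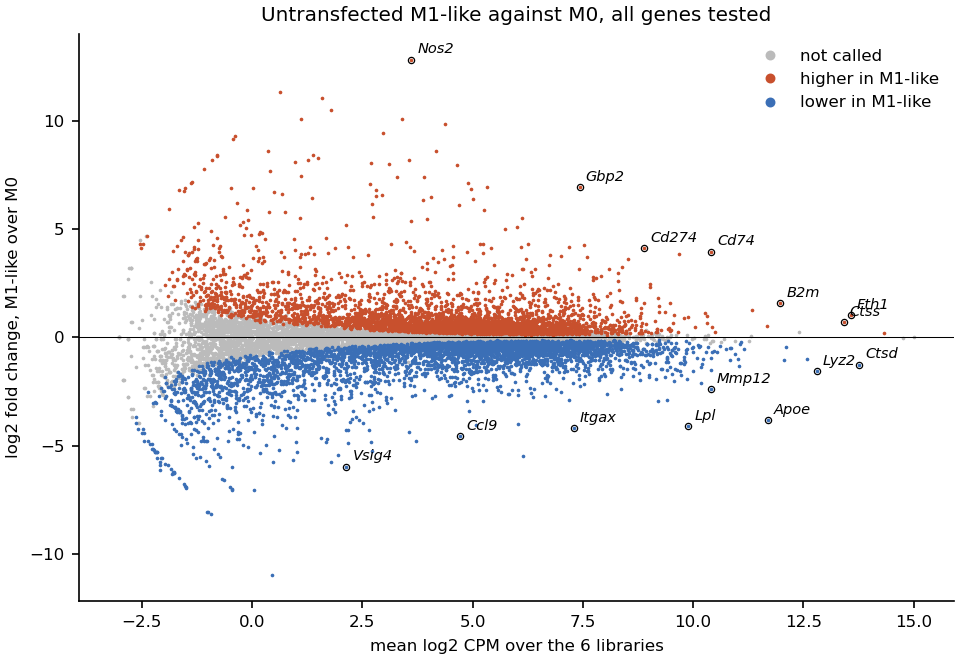
Log2 fold change of M1-like against M0 (vertical axis) plotted against the mean log2 CPM of the 6 libraries (horizontal axis), with 1 point for each of the 14172 genes tested and colour for genes past the test. The 4105 higher and 4074 lower genes cover the whole range of levels, and the named genes include Nos2 at 12.82 and Vsig4 at -5.96.

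Nos2, the inducible nitric oxide synthase, showed the largest rise under the rule for named genes. Its levels were 0.146, 0.0620 and 0.0682 CPM in the M0 libraries and 824, 654 and 639.9 CPM in the M1-like libraries. It was close to absent in M0, with 4 reads over the 3 libraries against 33412 in M1-like cells, and its log2 fold change was 12.82 ± 0.32 (adjusted p = 7.45e-24). The gene lies at chr11:78920787-78960254 on the plus strand of GRCm38. Gbp4, a guanylate-binding protein, went from 0.439, 0.186 and 0.205 CPM to 235, 371 and 285 CPM, and Iigp1, an immunity-related GTPase, from 1.098, 0.620 and 0.273 CPM to 472, 676 and 673 CPM. Their log2 fold changes were 10.06 ± 0.30 and 9.84 ± 0.35. Tgtp1 (9.42 ± 0.37) and Tgtp2 (8.61 ± 0.31), further GTPases of this family, are near-identical copies that share reads, so their separate values are uncertain. Gbp2b, at 7.95 ± 0.30, completes the 5 of the 10 largest rises that are interferon-inducible GTPases besides Nos2. The remaining 4 were Clic5, a chloride intracellular channel protein (8.198 ± 0.29), the serpin Serpina3g, which has similar neighbours (8.06 ± 0.46), Inhba, the β subunit of activin A (8.005 ± 0.28), and the GPI-anchored Ly6a (7.396 ± 0.38). Inhba stood at 0.293, 0.682 and 0.477 CPM in M0 and at 164, 115 and 107 CPM in M1-like libraries.

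The largest falls took in different kinds of genes. Vsig4, a complement receptor of resident macrophages, fell from 34.8, 39.6 and 29.4 CPM to 0.977, 0.134 and 0.505 CPM, a log2 fold change of -5.96 ± 0.38 (adjusted p = 7.04e-15). Ccl9, a CC chemokine, went from 116, 148 and 124 CPM to 5.37, 7.96 and 3.22 CPM (-4.56 ± 0.25). The largest changes in each direction were picked among genes without overlap between the groups. Abca9, an ABC transporter (-4.77 ± 0.18), Id3, an inhibitor of DNA binding that is needed by some tissue macrophages (-4.36 ± 0.29), and the sialic acid receptor Siglecf (-4.28 ± 0.30) were also among the 10, with Mamdc2 (-5.48 ± 0.16), Efr3b (-4.86 ± 0.32), Galnt9 (-4.83 ± 0.26) and Dnmt3aos (-4.29 ± 0.21). Siglecf is a marker of eosinophils as well as of some macrophages. Summed eosinophil markers, of which Siglecf is one, were 16.2 to 24.4 CPM in M0 and 0.611 to 1.70 CPM in M1-like libraries, with Prg2, a defining eosinophil gene, at 0.

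**Figure D2:**
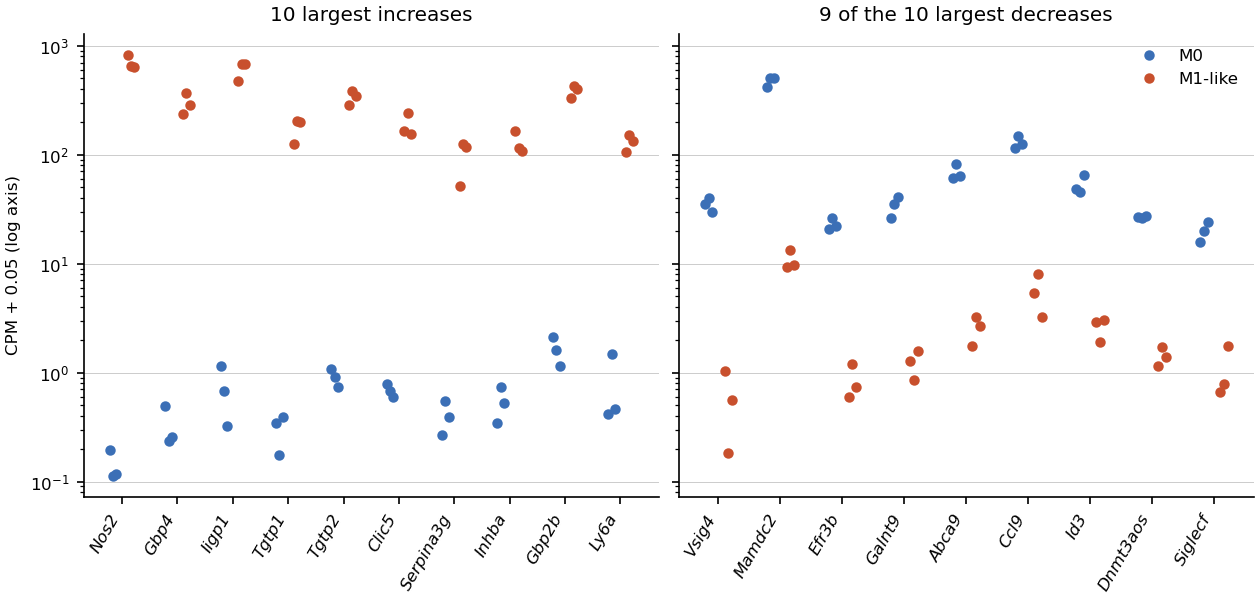
CPM of each of the 6 libraries, plus an offset of 0.05, on a log axis for the 10 genes with the largest rises and 9 of the 10 with the largest falls, M0 and M1-like in different colours. Only genes without overlap of the M0 and M1-like libraries could be picked, so the points lie apart by this rule.

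The guanylate-binding proteins (GBPs) and immunity-related GTPases (IRGs) gather on vacuoles that hold pathogens and break them open. All 8 GBPs tested rose, with a median log2 fold change of 6.72, and all 9 IRGs rose, with a median of 5.02, against 29.0% of all genes. Promoter sequences of 5 members are shown here because nearly all members with a sequence share an interferon element close to the gene start. They are RefSeq sequences of GRCm38.p6 from 250 bases before to 50 after the start, printed 5′ to 3′ on the strand of the gene, with matches in capitals to the ISRE core letters GAAANNGAA or the GAS letters TTCNNNGAA on either strand. They are Tgtp1 (chr11:48992197-48992496, minus strand), Igtp (chr11:58199306-58199605, plus), Irgm1 (chr11:48871371-48871670, minus), Gbp2 (chr3:142620413-142620712, plus) and Gbp2b (chr3:142594597-142594896, plus).
Tgtp1: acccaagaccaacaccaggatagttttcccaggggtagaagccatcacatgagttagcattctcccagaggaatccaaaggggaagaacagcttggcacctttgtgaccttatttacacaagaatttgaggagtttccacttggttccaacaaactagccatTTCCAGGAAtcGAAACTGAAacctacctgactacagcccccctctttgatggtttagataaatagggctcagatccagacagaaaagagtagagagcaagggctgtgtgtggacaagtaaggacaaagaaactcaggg
Igtp: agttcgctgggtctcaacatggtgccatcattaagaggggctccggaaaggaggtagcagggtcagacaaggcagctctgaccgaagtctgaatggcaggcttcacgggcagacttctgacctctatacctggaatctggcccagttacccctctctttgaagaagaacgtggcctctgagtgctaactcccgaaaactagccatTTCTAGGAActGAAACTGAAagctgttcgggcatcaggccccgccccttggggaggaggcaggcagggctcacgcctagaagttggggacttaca
Irgm1: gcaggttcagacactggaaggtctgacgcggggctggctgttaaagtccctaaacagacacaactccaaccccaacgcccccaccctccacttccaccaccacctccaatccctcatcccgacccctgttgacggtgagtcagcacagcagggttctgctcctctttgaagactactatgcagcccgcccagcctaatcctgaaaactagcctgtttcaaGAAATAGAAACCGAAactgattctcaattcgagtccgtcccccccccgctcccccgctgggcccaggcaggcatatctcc
Gbp2: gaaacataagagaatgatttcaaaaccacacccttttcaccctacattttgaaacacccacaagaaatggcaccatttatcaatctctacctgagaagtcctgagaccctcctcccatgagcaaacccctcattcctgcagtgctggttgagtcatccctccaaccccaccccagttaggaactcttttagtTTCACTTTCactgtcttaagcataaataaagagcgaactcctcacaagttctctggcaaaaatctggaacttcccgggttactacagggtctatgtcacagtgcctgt
Gbp2b: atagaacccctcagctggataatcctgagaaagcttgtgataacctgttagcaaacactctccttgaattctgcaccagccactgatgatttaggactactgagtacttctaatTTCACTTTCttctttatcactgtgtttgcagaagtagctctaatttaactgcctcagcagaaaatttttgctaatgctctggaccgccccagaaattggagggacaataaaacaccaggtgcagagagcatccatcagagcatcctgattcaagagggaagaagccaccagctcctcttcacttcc

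In these windows Tgtp1 holds an ISRE match that begins at -77 and a GAS match at -88, counted from the gene start, and Igtp the same pair, also 11 bases apart and not overlapping, at -34 and -45. Irgm1 holds overlapping ISRE matches at -30 and -24, Gbp2 an ISRE match at -58 and Gbp2b an ISRE match at -136. The ISRE letters were in 5 of the 5 GBP promoters and 6 of the 7 IRG promoters on hand, and the GAS letters in 2 and 5 of them. Over the promoters of all 10137 tested genes that had one, the shares were 8.93% for ISRE and 8.25% for GAS. Of the 10 genes with the largest rises 6 had a promoter sequence and 3 of these the ISRE letters, whereas 1 of 8 promoters of the largest falls had them. The type I interferon-stimulated genes described further on held ISRE in 12 of 19 promoters, and the MHC class II genes in 0 of 8. In the cytokine promoters the ISRE letters were in 1 of 16. Some other lists stood above the 8.93% too. Among these were cytosolic ribosomal proteins with 11 of 44 promoters, macrophage identity with 4 of 11 and alternative activation markers with 3 of 13. A match of letters describes the sequence and does not show that a factor bound there.

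Gbp2 stood at 18.3, 15.9 and 13.03 CPM in M0 and at 1335, 2342 and 2111 CPM in M1-like libraries, a log2 fold change of 6.94 ± 0.28. Gbp7 went from 10.5, 10.7 and 9.48 CPM to 437, 517 and 431 CPM (5.49 ± 0.18). The smallest rise of the GBPs was that of Gbp9, from 6.44, 4.47 and 4.98 CPM to 35.4, 62.3 and 42.3 CPM (3.14 ± 0.25). Each of the 8 was separated between the groups. Of the IRGs, Irgm1, a regulatory member that guards the cell's own membranes, rose from 43.8, 31.5 and 30.4 CPM to 424, 488 and 531 CPM (3.77 ± 0.16), Igtp by 4.12 ± 0.20 and Ifi47 by 5.02 ± 0.23 on the log2 scale, and Irgm2 showed the smallest rise at 2.898 ± 0.15. M0 replicate 1 was the highest M0 library for Gbp2, Irgm1, Ifi47 and Gbp9.

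Antigen presentation by MHC class II, which displays peptides taken up from outside to CD4+ T cells, rose in 10 of 11 genes tested (median 3.25). The class II transactivator Ciita, the factor that switches these genes on, went from 9.59, 12.2 and 7.57 CPM to 124, 161 and 156 CPM (3.902 ± 0.15, adjusted p = 1.68e-20). Cd74, the invariant chain, was at 396, 409 and 248 CPM in M0 and at 5440.3, 4507 and 6389 CPM in M1-like libraries (3.95 ± 0.14). H2-Ab1, the β chain of the I-A molecule, was at 248, 242 and 164 CPM and 3192, 2750.1 and 3383 CPM (3.83 ± 0.13). For Cd74 and H2-Ab1, M0 replicate 3 was the lowest M0 library, and no M0 library came near the M1-like ones. The peptide editors H2-DMa and H2-DMb1 rose by 3.15 ± 0.11 and 2.196 ± 0.09 on the log2 scale. H2-Eb2 was the 1 member that fell, from 0.0732, 0.869 and 0.341 CPM to 0 in each M1-like library, which are few reads.

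MHC class I, which displays peptides from inside the cell to CD8+ T cells, rose in 15 of 17 genes tested (median 1.83). Its light chain B2m stood at 2586, 2173 and 2209.6 CPM in M0 and at 7472, 6284 and 7209.7 CPM in M1-like cells (1.59 ± 0.12). Tap1, a subunit of the peptide pump into the endoplasmic reticulum, went from 58.5, 53.4 and 46.5 CPM to 696, 688 and 716 CPM (3.73 ± 0.14), and Nlrc5, the class I transactivator, rose by 2.998 ± 0.11. The rises of the nonclassical H2-Q6 (6.37 ± 0.24) and H2-Q7 (6.12 ± 0.22) come from loci that are similar enough to share reads and are therefore uncertain. The general chaperones of the pathway did not rise. Calr, calreticulin, was 892, 884 and 905 CPM in M0 and 693, 659.6 and 638 CPM in M1-like libraries (-0.43 ± 0.15), a fall that did not pass the test without M1-like replicate 3 (adjusted p = 0.0521), and Pdia3 did not pass it (0.10 ± 0.12). All 5 immunoproteasome genes rose, from Psme1 at 0.94 ± 0.12 to Psmb9, an interferon-inducible catalytic subunit, at 2.26 ± 0.14. Cd274 (PD-L1), the ligand of the T cell inhibitory receptor PD-1, was at 119, 113 and 109 CPM in M0 and 2166, 1968 and 1805 CPM in M1-like cells, a log2 fold change of 4.12 ± 0.09 with the narrow spread that gave an adjusted p of 7.20e-27.

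Among the transcription factors of the interferon and LPS response, 9 of 15 rose and 3 fell. Irf1, an early factor of the interferon response, was at 39.2, 49.6 and 37.7 CPM in M0 and 809, 812 and 824 CPM in M1-like cells (4.27 ± 0.13). Irf8, a lineage factor of macrophages, rose by 1.58 ± 0.08, while Irf9, the DNA-binding part of the type I interferon complex, rose by only 0.33 ± 0.09. Irf7, the amplifier of type I interferon, had a wide M0 group. It was at 62.7, 23.6 and 20.4 CPM in M0, with replicate 1 well above the other two, and at 344, 387 and 357 CPM in M1-like libraries (3.36 ± 0.34). Irf4, a factor linked to alternative activation, fell by 1.73 ± 0.25 while Irf3 and Irf5 fell slightly (-0.37 ± 0.07 and -0.19 ± 0.08), the second a call that was lost without M1-like replicate 1 or 2 or M0 replicate 3 (-0.14 without M1-like replicate 2, adjusted p = 0.187). Of the 13 NF-κB genes 9 rose and 0 fell, with a median of 0.41, including 3 of 5 subunits and 6 of 8 inhibitors, with Nfkbie (1.52 ± 0.24) and Nfkbib (1.24 ± 0.10) the largest.

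The receptors showed small changes in both directions, with 8 of 18 genes higher and 6 lower, beside 29.0% and 28.7% of all genes tested. Tlr4, the LPS receptor, did not pass the test, at 67.1, 71.97 and 62.7 CPM and 62.9, 80.99 and 68.8 CPM (0.08 ± 0.10). Its co-receptor Cd14 rose from 155, 153 and 147 CPM to 309.9, 313 and 285 CPM (0.998 ± 0.09) and the adaptor Ticam2 by 1.44 ± 0.11. Ifngr1, the ligand-binding chain of the IFNγ receptor, was lower in each M1-like library, at 134, 151 and 137 CPM against 65.02, 63.2 and 65.4 CPM (-1.13 ± 0.08), and its kinase Jak2 was higher (1.06 ± 0.07). Among the feedback inhibitors of cytokine signalling, Socs1, which blocks the JAK kinases, went from 0.659, 0.931 and 1.23 CPM to 26.5, 54.7 and 53.1 CPM (5.55 ± 0.35), Socs3 rose by 4.31 ± 0.47 and Cish by 5.42 ± 0.48. Zfp36 (tristetraprolin), which destabilises cytokine mRNA, fell from 83.3, 103 and 93.3 CPM to 50.7, 29.05 and 33.8 CPM (-1.298 ± 0.14). Set beside the same shares of all genes, 2 rose and 6 fell of 13 genes of other Toll-like receptors and their partners tested (Tlr4 included). They were Tlr12, a sensor of profilin, with 5.13, 7.09 and 6.37 CPM in M1-like libraries and 2 reads in all M0 libraries, the DNA sensor Tlr9 (1.57 ± 0.21), and, lower, the RNA sensor Tlr8 (-2.22 ± 0.14), Tlr1 (-1.49 ± 0.14), Tlr7 (-0.81 ± 0.13), Tlr13 (-0.54 ± 0.11), Unc93b1 (-0.30 ± 0.08) and Cd180 (-0.27 ± 0.10), of which Cd180 did not pass without replicate 2 of M0 (-0.25) or of M1-like cells (-0.24).

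The type I interferon-stimulated genes, a list of antiviral effectors, rose in 24 of 26 members tested, by less than the GBPs (median 2.06). Ifit2, which binds foreign RNA, was at 8.34, 2.85 and 4.43 CPM in M0 and 275, 339.8 and 295 CPM in M1-like libraries (5.89 ± 0.41). Rsad2 (viperin) went from 22.9, 13.7 and 15.8 CPM to 389, 370.1 and 277 CPM (4.31 ± 0.23), and Zbp1, a sensor of Z-form nucleic acid, from 10.2, 7.38 and 5.12 CPM to 90.1, 131 and 128 CPM (3.95 ± 0.34). None of these 3 overlapped between the groups. Ifi44, at 0.293, 0.0620 and 0 CPM and 10.3, 12.9 and 12.3 CPM, had the largest log2 fold change of the list (6.62 ± 0.80), from few M0 reads. Oas2, which makes an activator of RNase L, was at 22.8, 12.9 and 11.9 CPM in M0 and at 17.9, 29.4 and 20.9 CPM in M1-like libraries. These ranges overlapped and its rise of 0.53 ± 0.21 passed narrowly (adjusted p = 0.0352). It did not pass without M0 replicate 2 or 3 or M1-like replicate 2, with an adjusted p of up to 0.268, nor by DESeq2 (adjusted p = 0.0644) or from the 6 libraries alone in edgeR (adjusted p = 0.0895). Isg20, an RNA exonuclease, stood at 3.81, 3.23 and 3.34 CPM and 2.99, 1.67 and 2.71 CPM and did not pass the test (-0.48 ± 0.30, adjusted p = 0.18). Summed over the 26 genes, the M0 libraries gave 700.6, 478.1 and 463.7 CPM and the M1-like libraries 2265, 2760 and 2436 CPM. M0 replicate 1 thus stood above the other M0 libraries in this list as a whole.

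**Figure D3:**
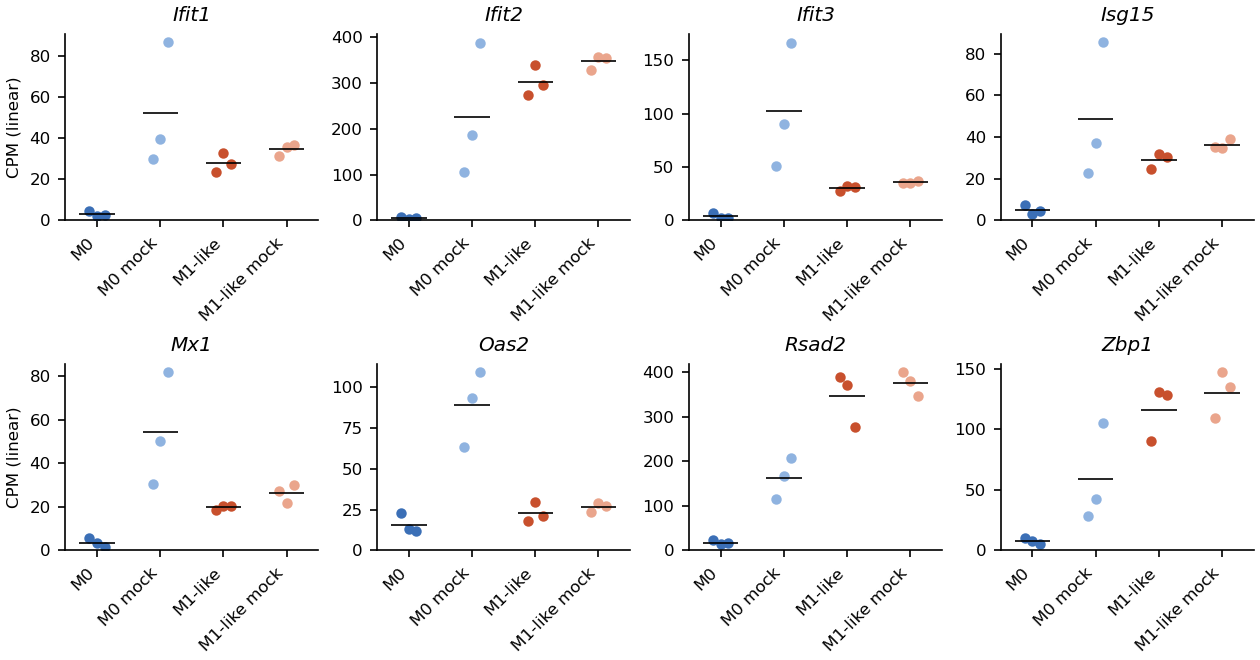
CPM on a linear axis of 8 interferon-stimulated genes in each library of M0, M0 mock, M1-like and M1-like mock cells, 3 points per condition with a black line at their mean. Untransfected M0 has the lowest mean in each panel, and M0 mock spreads widely upward. The M1-like mock points overlap the M1-like points in the other panels but lie wholly above them for Ifit3, Isg15 and Mx1.

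Inflammatory cytokines were higher in 17 of 19 genes tested and lower in 0, with a median of 2.05. Several of the best-known were nevertheless at low levels in M1-like cells. Il6 was at 0, 0.0620 and 0.136 CPM in M0 and 1.28, 0.402 and 1.01 CPM in M1-like libraries, and Il1b at 0.439, 0.496 and 0.205 CPM and 0.977, 4.42 and 0.568 CPM. M1-like replicate 2 carried most of the Il1b signal, and without it the rise of Il1b did not pass the test (adjusted p = 0.251). Tnf went from 7.54, 9.43 and 6.27 CPM to 26.98, 37.8 and 34.7 CPM (2.09 ± 0.20). Il18bp, an antagonist which captures interleukin-18, showed the largest rise of the list. It was at 3.44, 3.04 and 2.18 CPM in M0 and 414, 248 and 344 CPM in M1-like cells (6.86 ± 0.34), and Il1rn, the interleukin-1 receptor antagonist, rose by 2.05 ± 0.17, the median of the list. Il27 rose by 4.02 ± 0.37, and Ifnb1 and Il10 did not pass the test, with at most 1 read of Ifnb1 over the 6 libraries.

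Chemokines moved both ways. Among CXC chemokines 3 of 11 rose and 4 fell, which is near the 29.0% and 28.7% of all genes tested. Cxcl9, a ligand of the chemokine receptor CXCR3 on T cells, had 1 read in the 3 M0 libraries and 77.04, 49.5 and 65.5 CPM in the M1-like libraries (adjusted p = 6.41e-19). Cxcl10, its close relative, was low in both states, at 0.220, 0.186 and 0.136 CPM and 1.47, 8.099 and 6.62 CPM (4.84 ± 0.94). Cxcl16 rose by 2.74 ± 0.15, while Cxcl13 (-4.82 ± 0.81), Cxcl14 (-1.66 ± 0.15), Cxcl12 (-1.98 ± 0.61) and Pf4 (-1.35 ± 0.19) fell. The neutrophil attractants Cxcl1 and Cxcl2 did not pass the test, although Cxcl2 (0.94 ± 0.44) did without M1-like replicate 1 (1.39), M1-like replicate 3 (1.25) or M0 replicate 2 (1.39). Among CC chemokines 5 of 11 rose and 3 fell, beside the same shares of all genes. Ccl5, which attracts T cells and monocytes, was at 6.59, 1.49 and 0.955 CPM in M0 and 577, 265 and 388 CPM in M1-like cells (7.14 ± 0.60), and the monocyte attractant Ccl2 rose by 3.62 ± 0.30. Ccl6 fell by 2.14 ± 0.24. Of their receptors, Ccr1 rose from 47.1, 58.9 and 49.8 CPM to 279, 308 and 268 CPM (2.45 ± 0.16), and the monocyte receptors Ccr2 (-5.65 ± 0.46) and Cx3cr1 fell, the second from 3.07, 4.34 and 3.61 CPM to 0, 0 and 0.0631 CPM.

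The arginine genes split around Nos2. Slc7a2, the arginine transporter of macrophages, rose from 53.5, 47.3 and 39.9 CPM to 148, 133 and 115 CPM (1.49 ± 0.18), and Gch1, which makes the first step of the cofactor tetrahydrobiopterin, by 0.82 ± 0.10. The following enzymes of that cofactor, Pts (-1.27 ± 0.12), Spr (-0.69 ± 0.14) and the recycling enzyme Qdpr (-1.12 ± 0.07), fell. Arg1, arginase, which competes for the same substrate and is widely used as a marker of alternative activation, did not pass the test. It was at 72.2, 28.7 and 13.8 CPM in M0 and at 76.1, 136 and 35.3 CPM in M1-like libraries, with wide and overlapping ranges (1.12 ± 0.66, adjusted p = 0.149). M0 replicate 1 was the highest M0 library, and without it the log2 fold change was 1.95 with an adjusted p of 0.0341. Arg1 also passed with no filter (1.11, adjusted p = 6.26e-08) and with the replicate block (0.96, adjusted p = 0.0255).

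Acod1, which makes itaconate from a citrate cycle intermediate, was at 3.73, 5.71 and 1.71 CPM in M0 and 409, 497 and 496 CPM in M1-like cells (6.95 ± 0.45). Of the 22 genes of the itaconate and citrate cycle list, 5 rose and 8 fell, beside 29.0% and 28.7% of all genes tested. Idh1, the cytosolic isocitrate dehydrogenase, fell from 316, 352 and 321 CPM to 96.5, 85.3 and 80.4 CPM (-1.92 ± 0.08), and Ogdh, a later dehydrogenase of the cycle, fell as well (-0.83 ± 0.07). Glycolysis moved more uniformly, with 18 of 25 genes higher and 4 lower (median 0.81). Hk2, an inducible hexokinase, went from 78.3, 76.1 and 74.1 CPM to 331, 303 and 284 CPM (2.01 ± 0.07) and Slc16a3, which exports lactate, from 59.7, 53.3 and 55.6 CPM to 197, 276 and 255 CPM (2.11 ± 0.11). All 4 sugar and lactate transporters rose, among them Slc2a1 (1.05 ± 0.08). The count of 4 falls went to 2 without M1-like replicate 2 and likewise without M0 replicate 3. Of the 13 proteins encoded by mitochondrial DNA 10 fell and 0 rose (median -0.67). For mt-Cytb, of complex III, the values were 1282, 1503 and 1405 CPM in M0 and 342, 748 and 798 CPM in M1-like libraries (-1.15 ± 0.17), with M1-like replicate 1 the lowest, while mt-Co1 did not pass the test (0.25 ± 0.11) but did without M1-like replicate 2 (0.39, adjusted p = 0.00383), with no filter (adjusted p = 0.0183) and with the replicate block (adjusted p = 0.0485). The 69 nuclear subunits of the respiratory chain had no common direction, with 16 higher, 19 lower and a median of 0.02. These counts are near the shares over all genes tested.

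Sterol synthesis fell as a group. Of 25 genes tested 20 were lower and 0 higher, with a median log2 fold change of -0.97. By role these were 15 of 20 enzymes and 5 of 5 regulators and uptake genes. The enzyme Idi1 fell from 24.7, 27.9 and 24.5 CPM to 6.899, 4.95 and 4.86 CPM (-2.201 ± 0.22) and Hmgcs1, which makes the substrate of the rate-limiting step, from 97.7, 108 and 106 CPM to 33.9, 33.3 and 33.1 CPM (-1.64 ± 0.13). Srebf2, the master regulator of the pathway, was at 246, 233 and 241 CPM and 134, 104 and 114 CPM (-1.03 ± 0.11). The 3 M1-like libraries lay below the 3 M0 libraries for all 3 genes. Mvd did not pass the test (0.29 ± 0.16) and rose without M1-like replicate 2 (0.42, adjusted p = 0.0375). Fatty acid synthesis fell in 9 of 11 genes and rose in 0, with the desaturase Fads1 going from 48.97, 54.3 and 53.5 CPM to 10.3, 11.5 and 11.5 CPM (-2.24 ± 0.11) and the synthase Fasn changing by -1.48 ± 0.19.

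Lipid uptake and export genes, many of them targets of the sterol-sensing LXR receptors, included some of the most abundant transcripts of M0 cells. Apoe, apolipoprotein E, was at 13321, 11849.7 and 13318 CPM in M0 and at 965, 535 and 1216 CPM in M1-like libraries (-3.83 ± 0.21, adjusted p = 1.54e-16). Lpl, lipoprotein lipase, went from 3419, 4328 and 4046 CPM to 238, 253 and 205 CPM (-4.09 ± 0.15) and Cd36, a fatty acid and lipoprotein receptor, from 1565, 1967 and 2004 CPM to 256, 278 and 219 CPM (-2.88 ± 0.14). Together with the receptor Nr1h3 (LXRα, -1.53 ± 0.13), they were among the 9 of 16 genes that fell. The sterol exporters Abca1 (0.38 ± 0.17) and Abcg1 (0.02 ± 0.09) did not pass the test, but Abca1 did without M1-like replicate 1 (0.48) or 3 (0.47). In the list 2 genes rose, the second LXR, Nr1h2 (0.44 ± 0.08), and Acsl1, which activates fatty acids (1.76 ± 0.12).

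Genes used as markers of alternative, IL-4-driven activation were mostly lower in M1-like cells than in M0, with 13 of 16 lower and 1 higher (median -2.49). The mannose receptor Mrc1 was at 154, 144 and 121 CPM in M0 and 28.3, 22.2 and 18.5 CPM in M1-like cells (-2.601 ± 0.16). The growth factor Igf1 went from 238, 281 and 268 CPM to 16.4, 17.00 and 15.8 CPM (-4.000 ± 0.17), and Egr2, a factor of the IL-4 response, from 128, 142 and 142 CPM to 26.01, 18.5 and 23.6 CPM (-2.59 ± 0.12). All 3 separated the groups. The secreted Retnla (-5.302 ± 1.17), fibronectin, Fn1 (-2.91 ± 0.22), and the lipid receptor Trem2 (-1.37 ± 0.09) also fell. The exception was Vegfa, an angiogenic growth factor, which rose from 89.9, 86.2 and 79.8 CPM to 659, 455 and 475 CPM (2.63 ± 0.20). Pdcd1lg2 did not pass the test (1.17 ± 0.55) but did without M1-like replicate 2 (1.49, adjusted p = 0.0259). The markers of classical activation rose in 12 of 13 genes (median 3.90). The costimulatory Cd86 was at 9.66, 10.98 and 8.25 CPM and 110.3, 114 and 112 CPM (3.54 ± 0.13), Cd40 rose by 3.499 ± 0.21 and Cd38 by 2.76 ± 0.34. Marco, a scavenger receptor counted in the classical list, fell instead, from 65.2, 70.7 and 38.5 CPM to 23.4, 15.8 and 18.04 CPM (-1.61 ± 0.45).

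Ptgs2, the inducible cyclooxygenase, went from 1.098, 0.620 and 0.546 CPM to 87.1, 68.1 and 57.7 CPM (6.56 ± 0.35). With it rose the phospholipase Pla2g4a (1.77 ± 0.16) and the prostaglandin E synthase Ptges (2.103 ± 0.21), which act just before and after it. Of the 13 genes of the prostanoid and lipoxygenase list the other 9 called genes fell. They include the constitutive cyclooxygenase Ptgs1 (-1.77 ± 0.14), the prostaglandin D synthase Hpgds (-1.55 ± 0.08), the thromboxane synthase Tbxas1 (-1.67 ± 0.07) and the prostaglandin-degrading Hpgd, which went from 2.12, 3.04 and 3.14 CPM to 0.244, 0 and 0.126 CPM. The antioxidant list fell in 9 of 15 genes and rose in 3. Nfe2l2, which encodes the factor NRF2, was at 307, 314 and 282 CPM and 131, 116 and 108 CPM (-1.35 ± 0.08), catalase, Cat, fell by 1.39 ± 0.09, and the mitochondrial Sod2 rose by 2.27 ± 0.17. Hmox1, which breaks down haem, was at 287, 307 and 355 CPM and 340.0, 301 and 308 CPM (0.00 ± 0.11). In iron handling the ferritin chains, whose many processed genomic copies make their counts uncertain, went apart. The heavy chain Fth1 rose from 8557, 8575 and 8805 CPM to 21326, 13808 and 17243 CPM (1.01 ± 0.11) and the light chain Ftl1 was at 2401, 2641 and 2911 CPM and 1777, 1088 and 1046 CPM (-1.02 ± 0.20). The iron exporter Slc40a1 fell by 1.85 ± 0.30, and the iron importer Slc11a2 rose by 1.16 ± 0.06.

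Inflammasome and cell death genes rose in 12 of 22 and fell in 2, beside 29.0% and 28.7% of all genes tested. Casp4, the sensor of LPS in the cytosol, went from 14.2, 16.3 and 14.9 CPM to 88.03, 125 and 102 CPM (2.79 ± 0.19). Pyrin, Mefv (2.61 ± 0.32), the necroptosis effector Mlkl (2.07 ± 0.14) and the death receptor Fas (2.24 ± 0.19) rose by similar amounts, while the pore-former Gsdmd rose by 0.66 ± 0.07. The 2 falls were those of the flagellin sensors Naip5 (-0.32 ± 0.09) and Naip6 (-0.66 ± 0.10), which are similar copies and share reads. Of the 6 NADPH oxidase genes 2 rose, which is near the 29.0% of all genes tested, and 1 fell. The rises were those of the catalytic subunit Cybb (0.47 ± 0.10) and Rac2 (0.24 ± 0.08). Of these, 1 was left without M1-like replicate 1 or 3 or M0 replicate 3.

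The receptors by which macrophages see and take up targets were redistributed. Of the Fcγ receptors, Fcgr4 rose from 36.5, 27.9 and 24.9 CPM to 141, 154 and 167 CPM (2.38 ± 0.15), whereas Fcgr1 (-0.84 ± 0.22), the inhibitory Fcgr2b (-0.90 ± 0.13) and the shared signalling chain Fcer1g (-0.31 ± 0.10) fell, the last a call lost without M1-like replicate 2 (-0.19) or M0 replicate 3 (-0.26). In complement 7 of 17 genes rose and 9 fell, beside 29.0% and 28.7% of all genes tested. The proteases and central components rose, C1ra by 3.72 ± 0.24, C1s1 by 2.12 ± 0.30 (both have similar copies that can share reads) and C3, from 109, 90.5 and 77.5 CPM to 801, 663 and 994 CPM, by 3.15 ± 0.33. The recognition subunits C1qa (-2.12 ± 0.26), C1qb (-1.16 ± 0.15) and C1qc (-1.33 ± 0.15) and the anaphylatoxin receptors C5ar1 (-2.72 ± 0.13), C5ar2 (-2.803 ± 0.15) and C3ar1 (-0.71 ± 0.08) fell. Of the scavenger and efferocytosis receptors 10 of 17 fell, among them Stab1 (-2.72 ± 0.26), Colec12 (-2.12 ± 0.14) and the bridging proteins Gas6 (-2.63 ± 0.15) and Mfge8 (-1.500 ± 0.08). Axl, a receptor for Gas6, rose from 47.3, 44.05 and 39.4 CPM to 126, 67.3 and 122 CPM (1.27 ± 0.19).

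Integrins went both ways, with 6 of 15 higher and 6 lower, beside 29.0% and 28.7% of all genes tested. Itgax (CD11c) fell from 574, 704 and 775 CPM to 47.3, 23.6 and 41.1 CPM (-4.19 ± 0.19), as did Itgb5 (-1.97 ± 0.09) and the laminin receptor subunit Itga6 (-2.37 ± 0.18). Itgb7 went the other way, from 249.8, 212 and 239 CPM to 997, 1174 and 1293 CPM (2.31 ± 0.13), and so did the integrin ligand Icam1 (2.92 ± 0.27). Of the metalloproteinases and their inhibitors 7 of 14 fell and 3 rose, beside the same shares of all genes. The macrophage elastase Mmp12 went from 2690.4, 3143 and 3383 CPM to 583, 624 and 573 CPM (-2.37 ± 0.11), the membrane-bound Mmp14 rose by 0.91 ± 0.20, and the inhibitors Timp1 (1.88 ± 0.35) and Timp2 (-1.07 ± 0.08) moved apart. Lysosomal genes split as well. Lipa, the acid lipase that frees cholesterol and fatty acids, fell from 2289, 2379 and 2498 CPM to 611, 544 and 525 CPM (-2.09 ± 0.06), the protease Ctsd from 21916, 21171 and 21653 CPM to 9883, 7917 and 9396 CPM (-1.25 ± 0.08), and Ctsl fell too (-1.33 ± 0.11). Ctss, the protease that trims the invariant chain, rose from 8586, 8142 and 8810.0 CPM to 15856, 12299.5 and 13822 CPM (0.72 ± 0.08) and Ctsh by 1.02 ± 0.09. Tfeb, a regulator of lysosomal genes, fell by 1.27 ± 0.14.

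Genes of macrophage identity fell in 12 of 20 cases and rose in 3, beside 28.7% and 29.0% of all genes tested. Csf1r, the receptor for the survival factor M-CSF, was at 836, 1017 and 936 CPM in M0 and 255, 331 and 260.2 CPM in M1-like cells (-1.72 ± 0.10), and lysozyme, Lyz2, was at 12442, 12138 and 12027 CPM and 4895, 3871 and 3836 CPM (-1.54 ± 0.10). Adgre1 (F4/80, -0.87 ± 0.13), the lineage factor Spi1 (-0.66 ± 0.11) and Gata6, the factor of resident peritoneal macrophages (-1.605 ± 0.22), fell. Cebpb, another lineage factor, was at 115, 117 and 136 CPM in M0 and 316, 274 and 449.6 CPM in M1-like cells and rose, as did Cd14 and Ly6c2. Of 51 genes of DNA replication and mitosis 20 were lower and 7 higher, beside the same shares of all genes, with a median of -0.31. Pcna, the sliding clamp, fell from 112, 109.7 and 129 CPM to 54.03, 60.04 and 61.8 CPM (-0.996 ± 0.08), while Ccne1 (2.21 ± 0.20) and the cell cycle inhibitor Cdkn1a (1.73 ± 0.16) rose. The 7 rises became 4 without any 1 of M0 replicates 1 and 3 and M1-like replicates 1 and 2, and by DESeq2.

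The study transfected M2-like cells with siRNA against 4 factors, so their levels in the untransfected pair were of interest. E2f1, a cell cycle factor, was at 26.6, 24.6 and 27.6 CPM in M0 and 32.1, 27.8 and 29.9 CPM in M1-like libraries (0.19 ± 0.10, adjusted p = 0.117). Myc, a growth factor-induced regulator, fell from 14.9, 17.6 and 16.9 CPM to 3.24, 1.47 and 2.97 CPM (-2.67 ± 0.19). Pparg, the lipid-sensing receptor that goes with alternative activation, fell from 80.1, 79.8 and 79.1 CPM to 21.5, 19.9 and 21.1 CPM (-1.93 ± 0.09). Stat6, the IL-4 signal transducer, was at 288, 279.8 and 269 CPM and 243, 313 and 280.4 CPM (0.00 ± 0.09, adjusted p = 0.996). Myc and Pparg were thus lower in all 3 M1-like libraries, whereas the change of E2f1 and Stat6 was not detectable in 3 against 3 libraries.

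The same pair of states after a mock transfection had 8556 of 14172 genes past the test (60.4%), 4299 higher (30.3%) and 4257 lower (30.0%). Where the change itself was compared between the untransfected and the mock pair, 1286 genes (9.07%) differed, 829 (5.85%) with a larger value of M1-like minus M0 without mock and 457 (3.22%) with a smaller one. All 26 interferon-stimulated genes were among the first, as were 5 of 8 GBPs and 8 of 9 IRGs. The median change of the interferon-stimulated genes was 2.06 in the untransfected pair and -0.53 in the mock pair, where 15 were lower in M1-like cells and 5 higher. For Ifit2 the M0 mock libraries had 105, 185 and 388 CPM and the M1-like mock libraries 329, 357 and 355 CPM, next to 8.34, 2.85 and 4.43 CPM and 275, 339.8 and 295 CPM without mock. The M0 mock libraries all lay above the M0 libraries, and the difference in log2 change was 5.27 ± 0.50. Ifit3 (4.49 ± 0.52), Ifi213 (4.32 ± 0.55), Ifi206 (4.304 ± 0.65) and Ifit1 (3.72 ± 0.43) followed. In each of the 26 genes all 3 M0 mock libraries lay above all 3 M0 libraries, in 11 of them also above all 3 M1-like libraries, and in 22 the M1-like and M1-like mock ranges overlapped. In 19 of the 26 every M1-like mock library was nevertheless above the M1-like library of its own number. The shares of all genes tested that show these patterns were not counted, so these counts are not read as particular to the list. The 26 genes summed to 1815, 2650 and 3951 CPM in M0 mock and to 2594, 2865 and 2738 CPM in M1-like mock libraries. For Irf7 the mock pair changed by 0.06 ± 0.31, against 3.36 ± 0.34 without mock.

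In the other direction the largest difference was that of Marco (-3.73 ± 0.73). It was at 1.26, 2.31 and 5.68 CPM in M0 mock libraries, below the 65.2, 70.7 and 38.5 CPM of untransfected M0, and the mock pair changed by 2.13 ± 0.58. Prg4, which encodes lubricin (-3.07 ± 0.90), Cox6a2, a respiratory chain subunit of muscle type (-2.99 ± 0.78), the serpin Serpinb1a (-2.32 ± 0.32) and the calcium-binding S100a4 (-2.27 ± 0.35) were the next. The fall of Prg4 in the untransfected pair did not pass without M0 replicate 2 (adjusted p = 0.0521). S100a4 fell in the untransfected pair from 129.6, 121 and 173 CPM to 4.27, 13.4 and 8.58 CPM and stood at 39.7, 27.99 and 44.7 CPM in M0 mock. Many of the strong responses differed less. The change of Cd274 was 4.12 ± 0.09 without and 2.704 ± 0.08 with mock, that of Irf1 4.27 ± 0.13 and 3.81 ± 0.13, and the difference for Irf1 did not pass the test (0.46 ± 0.17, adjusted p = 0.0913). Sterol synthesis had a median of -0.97 without and -1.27 with mock, and alternative activation markers -2.49 and -2.13.

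**Figure D4:**
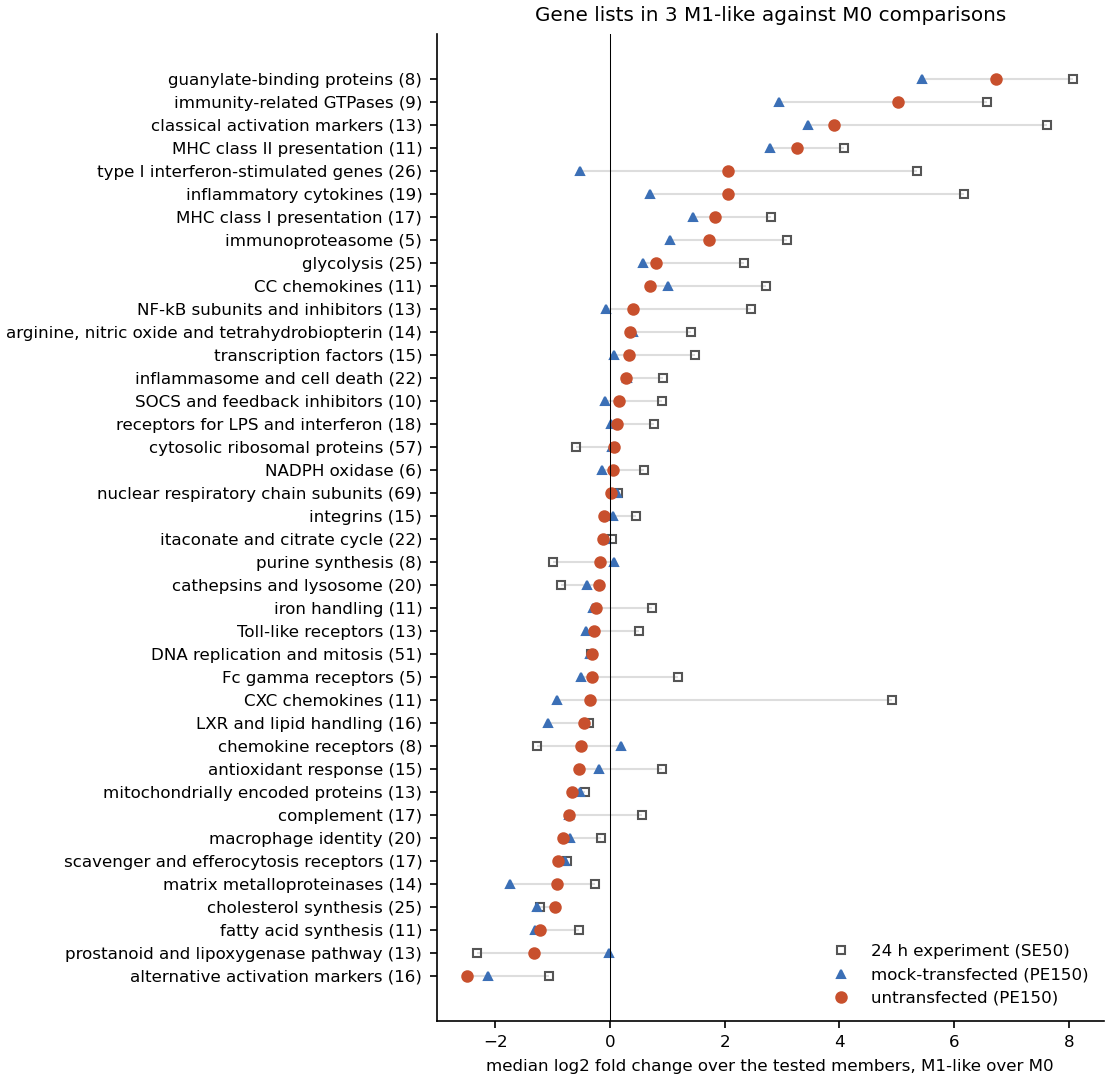
Median log2 fold change of M1-like against M0 for each gene list in the untransfected pair, the mock pair and the 24 h polarization experiment, on a linear axis with a line at 0. For some lists the members tested at 24 h differ from those tested in the other 2 pairs. The interferon-stimulated genes are at 2.06 untransfected, -0.53 after mock and 5.35 at 24 h, while cholesterol (sterol) synthesis stays below 0 in all 3.

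In the 24 h polarization experiment 11751 of 16110 genes passed the test (72.9%), 5703 higher (35.4%) and 6048 lower (37.5%). The fit had no term for the mouse, although the titles give the same mice in both states. The change of the untransfected pair differed from that of the 24 h experiment in 7758 of 15835 genes (49.0%). Of these, 3959 had larger (25.0%) and 3799 smaller values (24.0%). Sequencing site and read length differ between the 2 experiments, time and animals may differ too, and these cannot be told apart. In addition, some genes were counted very differently in unstimulated cells (Gapdh had a mean of 8.09 CPM in M0 here and 37.2 CPM there). The inflammatory lists had smaller changes here. Cytokines had a median of 2.05 over 19 genes, against 6.16 over the 20 genes tested at 24 h. Interferon-stimulated genes had 2.06 against 5.35, with 25 of 26 smaller, and glycolysis 0.81 against 2.34. MHC class II was closer, with 3.25 against 4.09, and for Cd74 the difference did not pass the test (-0.15 ± 0.17, adjusted p = 0.498). The difference for Nos2 did not pass either, at -0.82 ± 1.32, a wide error since few M0 reads were counted. Cytosolic ribosomal proteins fell in 53 of 57 genes at 24 h, where 37.5% of all genes fell. Here 14 of 57 fell and 17 rose, which is near the 28.7% and 29.0% of all genes tested in the untransfected pair.

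The most negative difference among the named genes was that of Cxcl10 (-8.04 ± 2.95). At 24 h it was at 0.222, 0.0617 and 0.264 CPM in M0 and 1319, 1339 and 1577 CPM in M1-like cells, against the low M1-like levels given above. Vcam1, an adhesion molecule (-7.33 ± 0.75), the complement protease Cfb (-6.37 ± 1.08), the chemokine Ccl7 (-6.36 ± 0.86) and the antiviral GTPase Mx1 (-5.83 ± 0.51) had the next largest deficits, and all 4 rose here, though by less (1.68, 3.24, 3.17 and 2.47). At the other end were genes that fell deeply at 24 h and less here. Slc27a6, a fatty acid transporter, was at 16.4, 13.98 and 15.3 CPM in M0 and 0.0295, 0.0281 and 0.0229 CPM in M1-like cells at 24 h, and at 13.4, 13.3 and 13.7 CPM and 8.42, 15.7 and 12.1 CPM here (8.72 ± 0.38). Its change here was not past the test except without M1-like replicate 2 (-0.39). Rgs18, a regulator of G protein signalling (7.84 ± 0.47), the hepatocyte growth factor Hgf (6.06 ± 0.20), the calcium-binding Mctp1 (5.48 ± 0.23) and Bex1 (5.34 ± 0.36) followed. Pparg had a log2 fold change of -6.57 at 24 h and -1.93 here, a difference of 4.64 ± 0.15. For Mmp12 the values were -6.26 and -2.37.

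**Figure D5:**
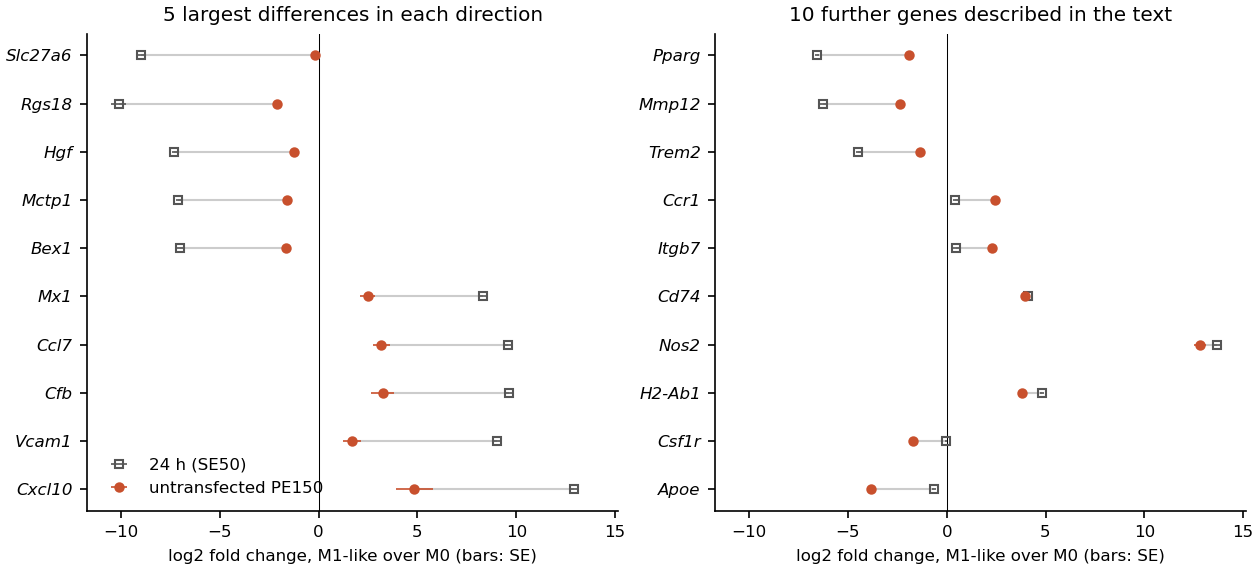
Log2 fold change of M1-like against M0 with its SE in the untransfected pair and in the 24 h polarization experiment for 20 genes, on a linear axis with a line at 0. Cxcl10, Vcam1 and Mx1 lie far higher at 24 h, Slc27a6 and Pparg far lower, Apoe and Csf1r are lower in the untransfected pair, and Cd74 is at 3.95 and 4.12.

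Some genes changed in the untransfected pair and less, or in the opposite direction, at 24 h. The log2 fold change of Apoe was -3.83 ± 0.21 here and -0.63 ± 0.11 at 24 h, a difference of -3.18 ± 0.26. That of Csf1r was -1.72 ± 0.10 here and -0.03 ± 0.07 at 24 h (-1.68 ± 0.14). Adgre1 fell here (-0.87) and rose at 24 h (1.79), as did Marco (-1.61 and 2.003) and Prg4 (-1.82 and 0.73). Ccr1 rose by 2.45 here and by 0.43 at 24 h, Itgb7 by 2.31 and 0.45. The antioxidant list was lower here (median -0.54) and higher at 24 h (median 0.90), with Hmox1 at 3.55 at 24 h and not past the test here. For each gene named in this paragraph the difference between the experiments passed the test, whereas the list medians were not tested. In the mock pair the log2 fold changes were -4.29 for Apoe, -1.29 for Csf1r and 2.45 for Ccr1.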

How the data were processed

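Reads were trimmed by the authors with Trimmomatic, mapped to mm10 (GRCm38) with TopHat2 and counted with featureCounts. Versions, strand setting and annotation release are not given in the sources used here. The deposited values are raw counts per gene, 1 file per library, with 39179 gene rows, of which 37693 had a GENCODE M21 symbol. Genes from a list that are missing among these rows (Gbp5, Gbp6, Gbp10, Ear11) were not analysed here. Without a known strand setting, overlapping and antisense genes cannot be told apart, and reads of near-identical copies may be split between them.

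All 36 paired-end libraries were fitted in a single edgeR model (R 4.3.3, edgeR 4.0.16) with a coefficient for each condition, after filterByExpr (minimum count 10, minimum total 15) and TMM scaling, with the quasi-likelihood test and Benjamini-Hochberg adjustment over all genes tested. Differences of changes were interaction contrasts, for the 24 h experiment in a joint fit with its 9 samples, whose technical replicates were summed. The log2 fold changes of that experiment come from its own fit. Neither fit had a term for the mouse, although the 24 h titles give the same mouse numbers in both states. For the joint fit the replicate block was an alternative. SE is the log2 fold change over the square root of F. Alternatives were DESeq2 1.42.0, its size factors, other filters, a fold threshold, fewer libraries in the fit, a replicate block and leaving out each library. The scripts were tested on simulated counts. Python 3.11.15, pandas 2.3.3, NumPy 2.4.6 and matplotlib 3.10.9 were used for tables and plots.

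Named are the 10 largest changes in each direction among genes with a symbol, a mean level of 2 or more in log2 CPM and groups that did not overlap, the leading and role-defining members of each list, the 5 largest differences in each direction and the siRNA targets. Tlr12, Rac2 and others of low or unchanged level are named for their role. Of the 10 largest falls 1 is not reported here. The members and gene lists were chosen with earlier results of these data known. Depth was 13421854 to 15851418 counts per library, and low counts limit precision.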

Additional observations from a re-analysis of the deposited data

Results flagged for a closer look

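The following values are differences of the M1-like minus M0 log2 change between pairs of libraries, each tested as an interaction in edgeR, and all passed an adjusted p of 0.05. Against the mock pair, 829 genes had a larger and 457 a smaller change. The named extremes were Ifit2 (5.27), Ifit3 (4.49), Ifi213 (4.32), Ifi206 (4.304) and Ifit1 (3.72) upward, and Marco (-3.73), Prg4 (-3.07), Cox6a2 (-2.99), Serpinb1a (-2.32) and S100a4 (-2.27) downward. Against the 24 h experiment, 3959 genes had a larger and 3799 a smaller change. The extremes were Slc27a6 (8.72), Rgs18 (7.84), Hgf (6.06), Mctp1 (5.48) and Bex1 (5.34) upward, and Cxcl10 (-8.04), Vcam1 (-7.33), Cfb (-6.37), Ccl7 (-6.36) and Mx1 (-5.83) downward.

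Ifi206 was at 1.24, 0.558 and 0.205 CPM in M0 and 73.1, 66.8 and 81.6 CPM in M1-like cells, and at 4.63, 10.6 and 26.6 CPM in M0 mock cells. Cox6a2 was at 15.2, 11.1 and 12.7 CPM in M0, 3.11, 2.68 and 5.05 CPM in M1-like and 1.19, 1.61 and 2.48 CPM in M0 mock libraries. Rgs18 was at 21.3, 22.6 and 23.3 CPM in M0 and 5.25, 5.29 and 5.11 CPM in M1-like cells here, and at 23.99, 22.99 and 22.3 CPM and 0.0295, 0.0281 and 0 CPM at 24 h. No test for a single outlying library was run, but the counts were repeated without each library in turn, as given below. Causes of these differences were not tested.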

How the results depend on the processing

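With a log2 fold change of at least 1 asked besides the test, the M1-like against M0 counts were 1149 higher and 1574 lower, those of the difference to the mock pair 314 larger and 98 smaller, and those of the difference to the 24 h experiment 1869 larger and 1668 smaller. Fitting only the 12 libraries of the contrast gave 505 larger and 230 smaller changes than in the mock pair, in place of 829 and 457. Under the other alternatives these counts stayed within 1.5 times. The M1-like against M0 counts were 3873 and 4099 by DESeq2, 4004 and 4173 with DESeq2 size factors in edgeR, 3898 and 4028 without a filter, 3493 and 3422 with at least 10 reads in every library, and 3477 and 3449 from the 6 libraries alone. On leaving out a library these ranged from 3636 to 3869 and from 3736 to 3920. The difference to the mock pair then ranged from 636 to 896 and from 316 to 465, and that to the 24 h experiment from 3632 to 3903 and from 3502 to 3807. The replicate block gave 4242 and 4253, 1106 and 643, and 4079 and 3964 for the 3 comparisons. The replicate numbers are shared across conditions, but the deviations of same-numbered M0 and M1-like libraries from their group means correlated at -0.0569, 0.174 and 0.0847 over 10223 genes, so the numbers were not taken to pair these groups. Same-numbered M1-like and M1-like mock libraries did deviate together, at 0.627, 0.575 and 0.513, but M0 and M0 mock libraries did not, at -0.249, -0.0353 and -0.0945. Of 92 counts of gene lists 68 moved under no alternative but the fold threshold, and 7 moved on leaving out a library, as given with each list. The filter of 10 reads in every library removes genes that are near 0 in M0 by construction, which left 5 of 8 GBPs, 5 of 9 IRGs and 9 of 17 cytokines. Of 228 named genes tested 16 changed their call under an alternative and 0 reversed their direction. Besides the values given in the text, Abca1, Cxcl2, Isg20, Mvd and Pdcd1lg2 passed with no filter and Irf5 did not, Abca1 and Mvd passed with the replicate block, and Irf5 and Rac2 did not pass from the 6 libraries alone. The limits are those of 3 libraries a state whose independence and harvest time are not stated for them separately, and genes with under 10 reads in M0, whose log2 fold changes are imprecise.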

Other observations

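Purine synthesis fell in 4 of 8 genes tested and rose in 0 in the untransfected pair, by small amounts. Paics was at 79.8, 90.1 and 83.2 CPM in M0 and 67.3, 64.9 and 68.8 CPM in M1-like libraries (-0.33 ± 0.06), Atic, which closes the ring of the base, at 71.96, 73.6 and 68.5 CPM and 43.5, 53.3 and 54.3 CPM (-0.50 ± 0.07). The median of the list was -0.17 here, 0.07 in the mock pair and -0.98 at 24 h. Cytosolic ribosomal proteins of the large subunit rose in 10 of 30 genes and fell in 5, and those of the small subunit rose in 7 of 27 and fell in 9. Of all genes tested in the untransfected pair, 29.0% rose and 28.7% fell.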
